A study of Mus musculus with 16 samples.

Results

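Luminal mammary cells carrying the polyoma middle T oncogene were compared between mice with and without a floxed allele of p38α, on 8 of the 16 arrays of the study and across 14410 tested genes. The PyMT group, the control, had the genotype MMTV-Cre with MMTV-PyMT, and the p38α-lox PyMT group had p38a-lox in addition, with 4 arrays in each and all mice aged 6 weeks. The arrays were chosen by their genotype labels alone. The mouse mammary tumour virus promoter, which drives both Cre and PyMT here, is active mainly in mammary epithelium, and both groups carry both transgenes. The cells were the luminal population sorted by flow cytometry, and the signal of each probe set is a log2 value. The labels do not say whether the p38a-lox allele is homozygous or how far it was recombined, nor that each array is 1 animal, so p-values measure the spread between these samples. The other 8 arrays, MMTV-Cre and p38a-lox with MMTV-Cre at 9 weeks and without PyMT, enter the model's estimate of spread and a comparison at the end.

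p38α, encoded by Mapk14, is a kinase activated by stress and cytokines. Upstream kinases such as Map2k3 and Map2k6 phosphorylate it, it acts through kinases such as Mapkapk2 and through transcription factors, and phosphatases such as Dusp1 switch it off. PyMT is a membrane-bound viral protein that recruits Src, phosphatidylinositol 3-kinase and protein phosphatase 2A and starts mammary tumours early in life. Luminal cells line the ducts and alveoli and include progenitors that can turn to milk secretion and hormone-sensing cells.

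The arrays were first set against each other and against marker genes. The median correlation of an array with the other 7 was lowest for PyMT replicate 4 (0.952) and lay between 0.966 and 0.979 for the others. The first principal component held 39.7% of the variance, and its scores ran from −59.7 in PyMT replicate 4 to 34.1 in PyMT replicate 2 and 35.7 in p38α-lox PyMT replicate 1. In PyMT replicate 4, 347 genes lay more than 2-fold below all 7 other arrays, against 1 to 32 genes in each other array. A control probe set for the 5′ end of β-actin parted replicates 1 and 2 of every group (12.505 or above) from replicates 3 and 4 (12.457 or below). Over the 16 arrays, limma called 316 genes between these sides. The numbers in the sample titles followed nearly the same split. They were under 2100 in replicates 1 and 2 of every group and above it in replicates 3 and 4, except PyMT replicate 4 (1989). Neither labels nor files say what the β-actin signal reflects. Where a list median printed below changed direction between the β-actin sides, it is therefore also given within each side, 2 arrays against 2.

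Luminal keratins and epithelial adhesion genes were high in all 8 arrays. The mean of these 8 genes lay between 10.79 and 11.50, lowest in PyMT replicate 4. Whether this mean parts luminal from basal cells was not tested. Markers of other cells were uneven. Col3a1, a collagen of fibroblasts, was 8.551, 5.023, 9.095 and 7.577 in the PyMT arrays and 8.581, 8.455, 5.319 and 4.232 in the p38α-lox PyMT arrays. Fabp4, a fatty acid carrier of adipocytes and endothelium, ran from 3.493 to 7.609 and from 3.179 to 7.957. The mean of 8 basal and myoepithelial markers lay between 7.123 and 8.138, that of 5 endothelial markers between 4.287 and 4.743, and that of 6 leukocyte markers between 5.262 and 5.488. Among the leukocyte markers the macrophage genes Cd68 and Lyz2 went opposite ways, with log2 differences (p38α-lox PyMT minus PyMT) of 0.98 ± 0.56 and −0.68 ± 0.32. The defining leukocyte genes Ptprc and Cd3e, the adipocyte genes Adipoq and Lep and the fibroblast genes Col1a2, Lum and Pdgfra were under the filter on low signal. Their part in the differences that follow was not tested, and in bulk RNA fewer cells of a type and less RNA per cell cannot be told apart.

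Mapk14, the targeted gene, was read by 6 probe sets, and none parted the groups. The probe set with the highest signal gave 7.167, 7.121, 7.645 and 6.878 in PyMT and 7.093, 7.25, 7.341 and 7.243 in p38α-lox PyMT. The groups overlapped fully. Over the 6 probe sets the log2 difference, p38α-lox PyMT minus PyMT, ran from −0.38 to 0.03, with 5 estimates below 0. Exact two-sided permutation tests gave p from 0.229 to 0.971, where the smallest p that 4 arrays against 4 allow is 0.0286. Without PyMT the p38α-lox mean was above that of MMTV-Cre for all 6 probe sets, by 0.07 to 0.78, with overlapping arrays. Neither the removed exon nor the position of the probes is stated, and recombination is not measured by these values.

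No gene of 14410 passed limma's adjusted p of 0.05 (0% called; smallest adjusted p = 0.757). At an unadjusted p under 0.05 there were 516 genes (3.58%), fewer than the 720 that chance alone would give, and 154 of them (1.07% of all tested) were higher and 362 (2.51%) lower in p38α-lox PyMT. The 4 arrays of one group lay wholly above the 4 of the other for 95 genes higher in p38α-lox PyMT (0.659%) and 272 lower (1.89%). Of the 516 genes 70.2% were lower, and with each array centred on its median the share was 56.2%. The median difference over all genes was −0.04, with 58.2% of estimates below 0 and 41.8% above. Estimates passed 2-fold for 94 genes, 40 higher and 54 lower. Weighting arrays by quality gave 5 called genes, and leaving out PyMT replicate 2 gave 3. The text below therefore describes genes as higher or lower in these arrays, with their values, and none as changed.

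Syvn1 had the smallest p of all genes and was lower in every p38α-lox PyMT array. Syvn1 is the ubiquitin ligase Hrd1, which with Sel1l forms the channel and ligase that clears misfolded proteins from the endoplasmic reticulum. Its promoter is shown because it holds the endoplasmic reticulum stress response element, the sequence bound by the stress factors Atf6 and Xbp1 together with NF-Y. The 250 bases before the RefSeq start (GRCm38.p6, chr19:6046326-6046575, plus strand) are printed with the match to the element, CCAAT and CCACG parted by 9 bases of any kind, in capitals, from 44 to 26 bases before the start.
Syvn1 promoter: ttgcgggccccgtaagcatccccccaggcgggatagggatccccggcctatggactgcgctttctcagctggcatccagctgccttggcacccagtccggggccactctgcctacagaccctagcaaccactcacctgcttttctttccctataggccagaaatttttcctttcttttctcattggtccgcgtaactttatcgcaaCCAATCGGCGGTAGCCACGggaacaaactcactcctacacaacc

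Syvn1 signals were 6.658, 6.502, 6.362 and 7.236 in PyMT and 5.489, 5.291, 5.311 and 5.526 in p38α-lox PyMT. The highest p38α-lox PyMT array lay clearly below the lowest PyMT array. The log2 difference was −1.29 ± 0.229 (SE; limma adjusted p = 0.757), and the second probe set of Syvn1 had the same sign. With array weights the difference was −1.22, with limma adjusted p = 0.0366; over the other ways of processing tried, the adjusted p ran from 0.0366 to 1. Without PyMT, Syvn1 differed by −0.66 between p38α-lox and MMTV-Cre, and the groups overlapped.

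The element was searched on both strands in the 300 bases from 250 before to 50 after the start of 11518 tested genes, and 19 genes held it (0.165%). Among them 9 had lower and 10 had higher estimates, with a median of 0.02. The chaperone Hsp90b1 was at 0.55 ± 0.354, the disulfide isomerase Pdia6 at 0.39 ± 0.246 and the chaperone Hspa5 at −0.22 ± 0.337. The RNA-binding protein gene Hnrnpa3 was higher by 0.61 ± 0.205 without overlap of the arrays.

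The next genes of the lower side fell into several functions. Nfatc2ip, which binds the transcription factor Nfatc2, was 5.47, 5.216, 5.123 and 5.341 in PyMT and 4.55, 4.707, 4.286 and 4.56 in p38α-lox PyMT, a difference of −0.76 ± 0.153. Setd1b, a methyltransferase of histone H3 lysine 4, was 5.778, 5.441, 5.497 and 5.819 against 4.454, 5.111, 4.581 and 4.376, a difference of −1.003 ± 0.233. Both parted the groups. Trmt61b, a methyltransferase of mitochondrial tRNA, was 6.945, 6.215, 7.014 and 7.334 against 5.895, 5.974, 5.983 and 6.169. Its p38α-lox PyMT arrays lay within a narrow band below all PyMT arrays, and the difference was −0.87 ± 0.2.

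Dag1 encodes dystroglycan, the laminin receptor that ties epithelial cells to the basement membrane. Its signal was 10.23, 9.753, 10.21 and 10.09 in PyMT and 9.025, 9.317, 9.3 and 8.796 in p38α-lox PyMT, without overlap, and the difference was −0.96 ± 0.243. The histidine ammonia lyase gene Hal (−0.94 ± 0.224), Mief1, a receptor for mitochondrial fission (−0.69 ± 0.171), and Osbpl2, an oxysterol-binding protein (−0.78 ± 0.199), also parted the groups. Each of the genes named in these 2 paragraphs had a limma adjusted p of 0.999. With array weights Nfatc2ip differed by −0.85 (limma adjusted p = 0.0326) and Trmt61b by −0.85 (adjusted p = 0.0442); over the other ways of processing tried, their adjusted p ran up to 1.

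Scara5, a scavenger receptor that takes up ferritin, was uneven between the PyMT arrays. It was 6.858, 4.286, 7.352 and 6.402 in PyMT and 4.656, 4.21, 4.289 and 4.099 in p38α-lox PyMT, and PyMT replicate 2 lay among the p38α-lox PyMT arrays. The difference was −1.91 ± 0.491 (limma adjusted p = 0.999) and, without PyMT replicate 2, −2.56 (adjusted p = 0.00947, range over alternatives 0.00947 to 1). PyMT replicate 2 also had the lowest Col3a1, Col1a1 and Fabp4 of its group. Leaving it out also called Trmt61b (−1.09, limma adjusted p = 0.0407) and the phosphate transporter gene Slc34a2 (−0.86, adjusted p = 0.0407), each with a range over alternatives from 0.0407 to 1.

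Among named genes without overlap, the largest further differences on the lower side were Ccl6, Lgals3bp, Slc6a6, Wfs1 and Plagl2. The clone 2310057J18Rik, passed over as unnamed, had a larger one (−2.14 ± 0.442). The chemokine gene Ccl6 was 7.789, 4.631, 4.948 and 6.753 in PyMT and between 4.31 and 4.554 in p38α-lox PyMT (−1.60 ± 0.5), so PyMT replicates 1 and 4 carried most of the difference. The same 2 arrays were the highest for the secreted glycoprotein gene Lgals3bp (−1.30 ± 0.452). The taurine transporter gene Slc6a6 was even in PyMT, at 7.025, 6.554, 7.139 and 6.873, against 6.02, 5.795, 5.765 and 4.995 (−1.25 ± 0.33), and its other 3 probe sets had the same sign. Wfs1, a calcium-handling protein of the endoplasmic reticulum, differed by −1.18 ± 0.573 and the zinc-finger factor Plagl2 by −1.12 ± 0.328.

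Of the genes higher in p38α-lox PyMT, Nhsl2 had the smallest p. Nhsl2, a relative of the actin regulator Nhs, was 4.703, 4.599, 4.639 and 4.638 in PyMT and 5.268, 5.081, 5.448 and 5.021 in p38α-lox PyMT, a difference of 0.56 ± 0.145. The groups did not overlap, but of its other 2 probe sets 1 had the opposite sign (−0.24). Snw1, a splicing factor and transcriptional coregulator, was 5.702, 5.341, 5.651 and 5.088 against 5.983, 6.003, 6.168 and 6.167 (0.63 ± 0.182). Its p38α-lox PyMT arrays were tight and all above PyMT. Zfp292, a zinc-finger gene, was 6.187, 6.423, 6.082 and 5.513 against 7.409, 6.676, 7.042 and 6.948 (0.97 ± 0.296), without overlap. With probe sets averaged its difference was 0.33, and 1 of its 5 other probe sets was at −0.24.

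Epb41l3, which anchors the membrane skeleton, differed by 1.20 ± 0.344. It was 4.425, 5.542, 5.233 and 4.678 in PyMT and 5.39, 6.23, 6.558 and 6.513 in p38α-lox PyMT, where replicate 1 lay within the PyMT range. Aimp1, a scaffold of tRNA synthetases, was between 8.507 and 8.687 in p38α-lox PyMT and between 7.598 and 8.281 in PyMT (0.62 ± 0.192). Amotl1, which binds the Hippo effector Yap1, was higher by 0.64 ± 0.203 and parted the groups. Mospd2 (0.58 ± 0.177), Cfap298 (0.71 ± 0.227, and 0.35 with probe sets averaged), the dynein regulator Nudc (0.63 ± 0.201) and Tmem191c (1.22 ± 0.39) completed the 10 genes with the smallest p. All 10 had a limma adjusted p of 0.999.

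**Figure D1:**
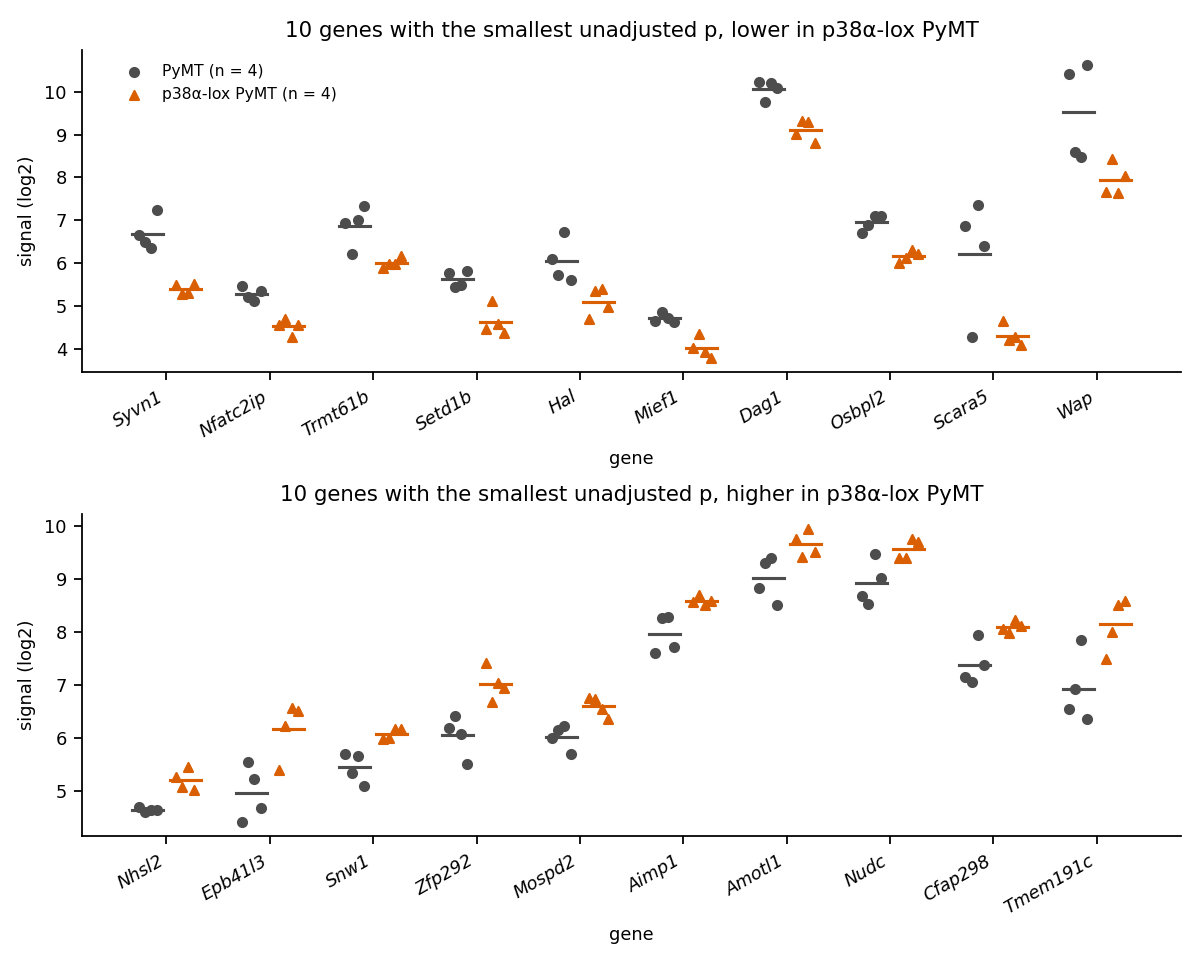
Log2 signal in each array (points) and group mean (line) for the 10 genes of smallest unadjusted p in each direction, PyMT in grey circles and p38α-lox PyMT in orange triangles, 4 arrays each. The groups overlapped for Scara5 on the lower side and for Epb41l3, Nudc and Tmem191c on the higher side, and for none of the others plotted.

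Of genes whose arrays did not overlap, large further differences on the higher side were those of Cavin2, Casp12, Casp4, Mapk8ip3 and H2-T10. The clones D17H6S56E-5, BC064078 and AW549877 were passed over in this order, and the first 2, with differences of 4.16 and 1.43, are given at the end. Cavin2, a coat protein of caveolae, was between 4.324 and 4.699 in PyMT and 6.968, 5.044, 5.946 and 6.11 in p38α-lox PyMT (1.46 ± 0.539). Mapk8ip3, a scaffold that gathers JNK kinases, was 6.349, 6.757, 6.728 and 5.219 against 7.776, 7.417, 7.264 and 6.961 (1.09 ± 0.353). Its lowest p38α-lox PyMT array lay just above the highest PyMT array.

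Runx1 and Tfap2a, 2 transcription factors of mammary epithelium, were read differently by different probe sets, and both were picked out after their values were seen. Runx1, the DNA-binding partner of Cbfb, was read by 6 probe sets. The one with the highest signal, used above for the gene, was 7.155, 6.984, 7.987 and 6.903 in PyMT and 7.684, 7.106, 7.974 and 7.26 in p38α-lox PyMT, a difference of 0.25 ± 0.252. The other 5 all had lower means in p38α-lox PyMT.

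The lower Runx1 probe sets differed in size. Probe set 1422865_PM_at was 5.686, 5.567, 6.337 and 5.536 in PyMT and 4.917, 4.641, 5.11 and 4.011 in p38α-lox PyMT, without overlap, a difference of −1.11 ± 0.27. Probe set 1422864_PM_at differed by −1.20 ± 0.372, with arrays that overlapped, and 1427650_PM_a_at by −0.49 ± 0.172, without overlap. The remaining 2 differed by −0.53 ± 0.219 and −0.45 ± 0.34. In a limma fit of 33856 probe sets, 4 of the 6 were lower at an unadjusted p under 0.05, where 2.39% of all probe sets were, and their adjusted p was 1. Leaving out any 1 array kept the difference of 1422865_PM_at between −1.26 and −0.89, and within the β-actin sides it was −0.85 and −1.38. Without PyMT the p38α-lox mean was also below that of MMTV-Cre for all 6 Runx1 probe sets, with differences of −0.84 for 1422865_PM_at and −0.02 for the probe set of highest signal. The probe sets read 1 gene, and their positions on its transcripts are not stated.

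Tfap2a, the transcription factor AP-2α, was lower on both of its probe sets. Probe set 1421996_PM_at was 6.923, 7.251, 7.255 and 7.965 in PyMT and 5.931, 5.679, 6.045 and 6.218 in p38α-lox PyMT, a difference of −1.38 ± 0.291 without overlap (limma adjusted p = 0.662, rank 14 of 33856 probe sets). The probe set of higher signal was 8.957, 9.637, 8.704 and 7.788 against 8.271, 8.53, 7.84 and 8.226, a difference of −0.55 ± 0.287 with overlap. When probe sets of a gene were averaged, Tfap2a had the smallest p of all genes (3.72e-05, limma adjusted p = 0.358; range over alternatives 0.166 to 1).

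**Figure D2:**
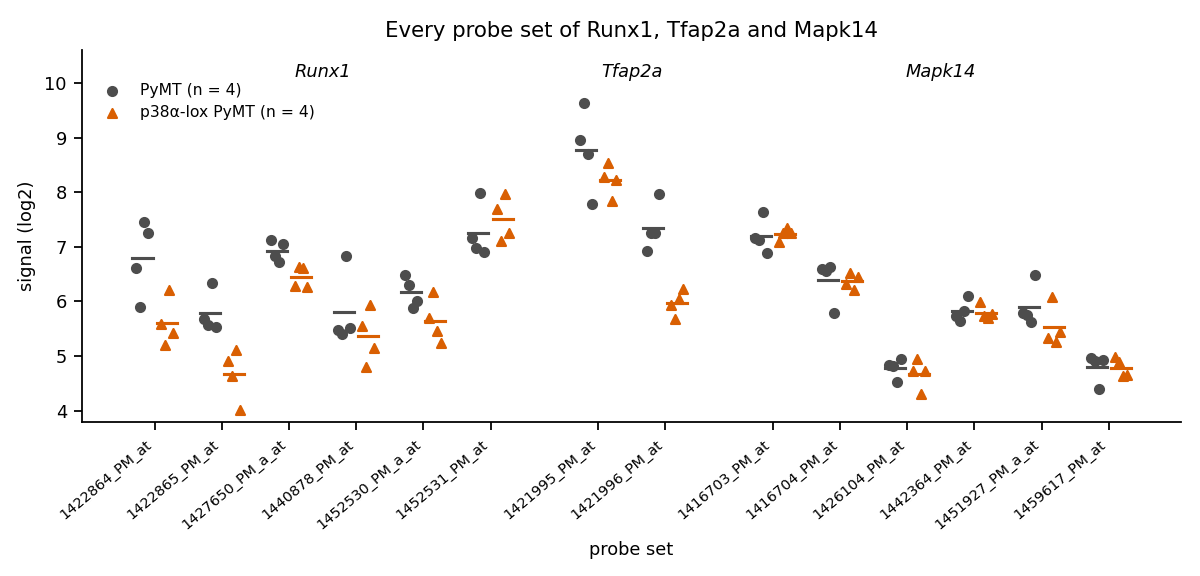
Log2 signal in each array and group mean for all 6 probe sets of Runx1, 2 of Tfap2a and 6 of Mapk14. For Runx1, 5 of 6 probe sets had a lower mean in p38α-lox PyMT, for Tfap2a 2 of 2, and for Mapk14 5 of 6 with differences of 0.38 or less.

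Genes were then read by function in 35 lists. Of 683 distinct members 621 had a probe set and 594 were tested; 38 of these were at an unadjusted p under 0.05 (6.4%, beside 3.58% of all genes), 31 lower and 7 higher, and 0 passed limma's adjusted threshold. Lists and members were chosen with earlier results of these data known, and several lists hold genes of smallest p, such as Syvn1 and Setd1b. The share of 6.4% is therefore no test of these functions. The list medians lay below 0 for 20 lists and above for 15. Of the 34 lists with more than 1 tested member, 19 had medians of opposite sign on the β-actin sides, and the sign also changed in 16 when 1 array was left out. The counts of members below stand beside 58.2% of all tested genes with lower and 41.8% with higher estimates. At an unadjusted p under 0.05 the shares were 2.51% lower and 1.07% higher.

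Genes of the p38 pathway itself showed little order, with 17 higher and 15 lower of 32 tested and a median of 0.01 (−0.08 and 0.02 within the β-actin sides). The kinases that activate p38, Map2k3 (0.39 ± 0.329) and Map2k6 (0.10 ± 0.258), and the downstream kinase Mapkapk2 (0.25 ± 0.332) differed by little more than their standard errors or less. The other p38 isoforms tested, Mapk12 (0.12 ± 0.385) and Mapk13 (−0.12 ± 0.163), did too. The 2 members at an unadjusted p under 0.05 were both lower. Dusp1, a phosphatase of p38 and JNK that is itself induced by stress, was 10.14, 9.626, 9.353 and 9.729 against 9.092, 9.434, 9.255 and 8.558 (−0.63 ± 0.28). Mknk2, a kinase of the translation factor eIF4E, was at −0.52 ± 0.239. Among the neighbouring JNK and ERK kinases and regulators 12 of 20 were higher (median 0.14; −0.11 and 0.29 within the β-actin sides, −0.05 to 0.20 with 1 array left out), with Mapk8ip3 and the feedback inhibitor Spry4 (0.39 ± 0.17) higher and Mapk7, the kinase ERK5, lower (−0.52 ± 0.173). Of the other 3 probe sets of Spry4 only 1 had the same sign (0.22), and the rest were at −0.01 and −0.07.

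Of the proteins that PyMT binds or activates, 10 of 22 had lower estimates (median 0.03; −0.16 and 0.06 within the β-actin sides). Ppp2r1a, the scaffold subunit of protein phosphatase 2A, was 10.59, 10.42, 9.994 and 10.97 in PyMT and 10.03, 10.18, 9.709 and 9.747 in p38α-lox PyMT (−0.58 ± 0.188). Of its other 4 probe sets 3 were also lower and 1 was at 0.24. Src was at −0.32 ± 0.166 and the regulatory subunit gene Pik3r2 at −0.41 ± 0.209. The growth factor receptors Egfr (0.64 ± 0.446) and Erbb4 (0.56 ± 0.287) had higher estimates and Erbb2 a lower one (−0.30 ± 0.226), all with overlap. Of 12 tested genes of the EGF family and its receptors 7 were lower, with a median of −0.09. That median was −0.09 and 0.06 within the β-actin sides and −0.15 to 0.09 with 1 array left out.

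Transcription factors of the luminal lineage had lower estimates for 19 of 23 tested (82.6%, beside 58.2% of all genes), with a median of −0.27. Cebpb, needed for alveolar development, was 10.36, 9.27, 9.986 and 10.93 in PyMT and 8.823, 9.727, 9.578 and 8.786 in p38α-lox PyMT (−0.91 ± 0.353). PyMT replicate 2 lay within the p38α-lox PyMT range. Its relative Cebpd was at −0.71 ± 0.322, and Id2, an inhibitor of basic helix-loop-helix factors, at −0.68 ± 0.235. These were the 3 members at an unadjusted p under 0.05, and on the probe sets of highest signal 0 parted the groups. Another probe set of Id2 (−1.03) and of Cebpb (−0.39) did part them, while the remaining probe set of each overlapped (−0.03 and −0.19). The alveolar factor Elf5 was at −0.24 ± 0.445 and the luminal regulator Gata3 at −0.27 ± 0.249, while Klf5 was at 1.05 ± 0.581. The median lay between −0.42 and −0.17 over the other ways of processing tried. Of 6 luminal progenitor markers 5 had lower estimates (83.3%) and 0 were at an unadjusted p under 0.05. Their median was −0.30 (−0.46 to −0.10 with 1 array left out), and Aldh1a3 was the 1 with a higher estimate.

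Milk and secretion genes had lower estimates for 14 of 17, with a median of −0.31. Wap, a whey protein, was 10.41, 8.594, 8.488 and 10.63 in PyMT and 7.652, 8.423, 7.643 and 8.03 in p38α-lox PyMT. The groups did not overlap, but PyMT replicates 2 and 3 lay close to the highest p38α-lox PyMT array. The difference was −1.59 ± 0.409. Slc34a2 (−0.62 ± 0.185) and B4galt1, a subunit of lactose synthase (−0.59 ± 0.24), were also at an unadjusted p under 0.05. The lactose synthase subunit Lalba was at −1.23 ± 0.706, and the caseins Csn2 and Csn1s1 were at −0.55 ± 0.74 and −0.26 ± 0.499. The list mean was 10.14, 8.848, 9.687 and 9.783 in PyMT and 9.261, 9.552, 9.243 and 8.913 in p38α-lox PyMT, so PyMT replicate 2 was the lowest of all 8. Without PyMT replicate 1 the median was −0.01, and without PyMT replicate 2 it was −0.58.

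Genes of degradation from the endoplasmic reticulum had lower estimates for 18 of 25 (72.0%), with a median of −0.13. Syvn1 was the 1 member at an unadjusted p under 0.05. Its partner Sel1l was 8.567, 8.925, 8.445 and 7.438 against 8.545, 7.968, 7.467 and 7.633 (−0.44 ± 0.424), with overlap. The other 4 probe sets of Sel1l were also lower, at −0.62, −0.65, −0.63 and −0.56. The one at −0.62 parted the groups (4.888 to 5.251 in PyMT against 4.227 to 4.631), and the rest overlapped. Herpud1, which assembles the Syvn1 complex, was at −0.62 ± 0.319. The ubiquitin ligase Rnf185 (−0.31 ± 0.192) and Faf2, a recruiting factor of this pathway (−0.30), parted the groups along with Syvn1. On the probe sets of highest signal these were 3 of 25 members, beside 1.89% of all tested genes lower without overlap. Rnf185 parted narrowly, with the lowest PyMT array at 7.7 and the highest p38α-lox PyMT array at 7.689. Its other probe set was at 0.03. Chaperones and sensors of the unfolded protein response were split, 13 lower and 11 higher of 24 (median −0.04; −0.09 and 0.19 within the β-actin sides), with the sensor Eif2ak3 at −0.46 ± 0.195 and the transcription factor Xbp1 at −0.72 ± 0.437. The other 2 probe sets of Eif2ak3 were at 0.06 and −0.12. Xbp1 was 10.07, 9.989, 9.598 and 10.34 in PyMT and 8.383, 9.836, 9.618 and 9.29 in p38α-lox PyMT, where replicate 1 was the lowest.

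A few secretory pathway genes outside these lists were picked out after their values were seen. Creb3l1, a stress factor of the endoplasmic reticulum that drives secretory genes, was 8.786, 7.414, 8.372 and 8.605 in PyMT and 6.314, 7.544, 7.658 and 6.331 in p38α-lox PyMT (−1.33 ± 0.356). Again PyMT replicate 2 was the PyMT array within the other group's range. Its relative Creb3l2 was at −0.98. Tor1b, a torsin of the endoplasmic reticulum, parted the groups (8.198 to 9.192 against 7.428 to 7.807; −1.12 ± 0.331). So did Tmem165, a Golgi ion transporter needed for glycosylation (−0.94 ± 0.253). With the β-actin side as a term in the model Tmem165 had the smallest p of all genes (1.95e-05, limma adjusted p = 0.281).

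Histone H3 lysine 4 methyltransferase complexes had 4 of 15 members at an unadjusted p under 0.05, all lower, beside 2.51% of all tested genes lower at that p. Beside Setd1b these were Kmt2d, 8.166, 7.769, 8.303 and 7.011 against 7.039, 6.915, 6.582 and 6.586 (−1.03 ± 0.348), the Setd1 partner Cxxc1 (−0.33 ± 0.149) and the Kmt2d partner Paxip1 (−0.29 ± 0.12). The catalytic gene Kmt2b was at −0.52 ± 0.3, and Kmt2c at 0.41 ± 0.398. Of the core subunits shared by these complexes, Wdr5, Ash2l, Rbbp5 and Dpy30 had higher estimates (0.11 to 0.40). The list median was −0.26, with 8 of 15 lower. It was −0.03 when probe sets of a gene were averaged and −0.32 to −0.12 with 1 array left out. The list was chosen with earlier results of these data known and holds Setd1b, among the genes of smallest p. Its share of members at a small p is therefore no test of these complexes.

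Notch pathway genes had lower estimates for 18 of 21 (85.7%), with a median of −0.18 and a range of −0.25 to −0.11 over the other ways of processing tried. The ubiquitin ligase Dtx1 was 5.329, 4.696, 5.187 and 5.288 against 4.473, 4.546, 4.515 and 4.507, without overlap (−0.61 ± 0.197). Maml1, a coactivator of the Notch complex, was at −0.76 ± 0.276. The receptors Notch1, Notch2, Notch3 and Notch4 were at −0.48 ± 0.293, −0.48 ± 0.345, −0.41 ± 0.236 and −0.21 ± 0.166, and the target genes Hes1 and Hey1 at −0.09 ± 0.285 and −0.10 ± 0.544. The DNA-binding partner Rbpj was at 0.19 ± 0.333. Within the β-actin sides the list median was −0.17 and −0.24.

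**Figure D3:**
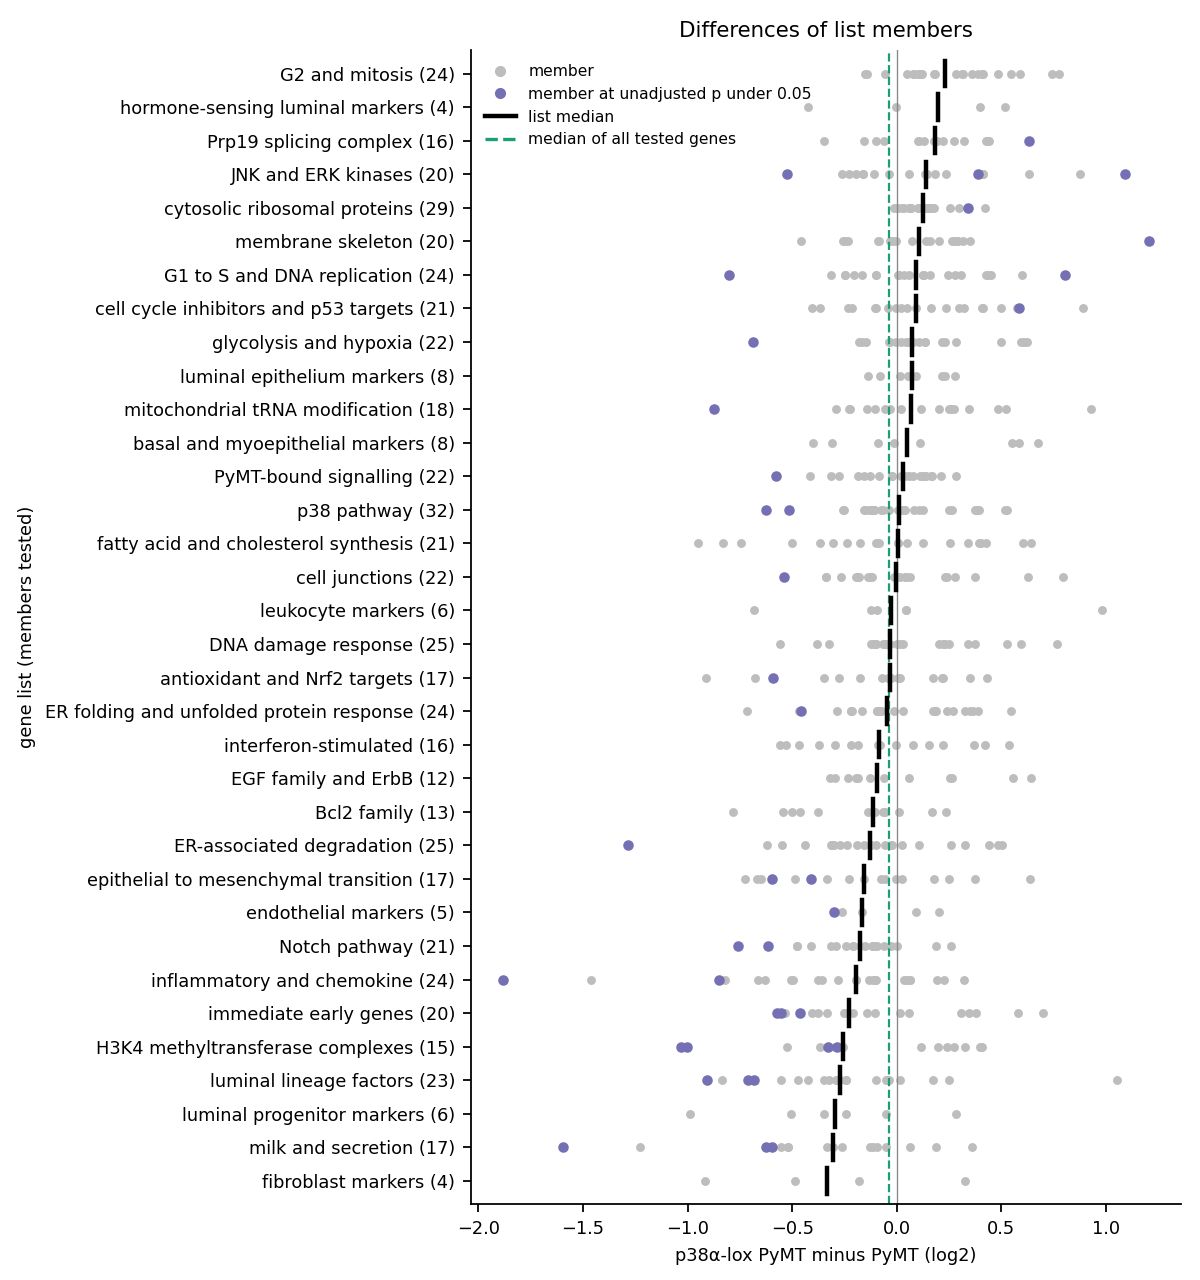
Log2 difference, p38α-lox PyMT minus PyMT, of each tested member (points) and list median (black bar) for the lists with more than 1 tested member; purple points are members at an unadjusted p under 0.05 and the dashed line is the median of all tested genes, −0.04. Milk and secretion (−0.31) and luminal lineage factors (−0.27) lie toward the lower end and G2 and mitosis (0.23) at the upper end.

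Inflammatory genes had lower estimates for 17 of 24 (median −0.19; −0.42 to −0.12 with 1 array left out). The neutrophil-attracting chemokine Cxcl2 was 10.4, 7.464, 7.721 and 10.71 in PyMT and 8.765, 7.167, 6.998 and 5.827 in p38α-lox PyMT (−1.88 ± 0.795), high in PyMT replicates 1 and 4 as Wap and Ccl6 were. S100a8, a calcium-binding protein of neutrophils and stressed epithelium chosen after its values were seen, was 9.752, 8.527, 7.437 and 10.48 against 8.28, 6.67, 6.148 and 6.967 (−2.03 ± 0.597). Ptgs2, the inducible cyclooxygenase, was low in all arrays and parted the groups (4.437 to 4.875 against 3.393 to 4.088; −0.85 ± 0.396). Immediate early genes, which also respond to tissue dissociation, had lower estimates for 13 of 20 (65.0%), near the 58.2% of all genes. Their median was −0.23 (−0.31 to −0.12 with 1 array left out). The 3 at an unadjusted p under 0.05 were Fosl2 (−0.57 ± 0.255), Jund (−0.55 ± 0.239) and the orphan nuclear receptor Nr4a2 (−0.46 ± 0.199), and Nr4a2 parted the groups. Interferon-stimulated genes had 10 of 16 lower (62.5%), also near the 58.2% of all genes. The median of this list was −0.09 (−0.16 and 0.03 within the β-actin sides, −0.28 to 0.03 with 1 array left out). The antigen-processing subunit Psmb8 was at 0.54 ± 0.334.

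Genes of mitosis had higher estimates for 21 of 24, with a median of 0.23 and 0 at an unadjusted p under 0.05. The proliferation marker Mki67 was at 0.78 ± 0.675 and the topoisomerase Top2a at 0.48 ± 0.628. The list mean was 6.161, 6.993, 5.81 and 6.049 in PyMT and 6.154, 6.647, 6.101 and 7.157 in p38α-lox PyMT, so 1 array of each group was high. Within the β-actin sides the median turned, at −0.21 for replicates 1 and 2 and 0.69 for replicates 3 and 4. Without p38α-lox PyMT replicate 4 it was 0.05, and without PyMT replicate 3 it was 0.07. Of the genes that start the cycle, Ccnd1, cyclin D1, was 8.799, 9.152, 8.927 and 8.031 against 9.479, 9.674, 9.569 and 9.401, without overlap (0.80 ± 0.301). Cdk2, a kinase of the same step, was lower, at 7.209, 7.166, 6.786 and 6.588 against 5.918, 6.752, 6.023 and 5.845 (−0.80 ± 0.245). The list of G1 to S and DNA replication genes had 16 of 24 higher, with a median of 0.09. That median was −0.20 and 0.37 within the β-actin sides and −0.07 to 0.18 with 1 array left out. Among cell cycle inhibitors and p53 targets 13 of 21 were higher (median 0.09; 0.05 to 0.23 with 1 array left out), and Perp, a desmosomal p53 target, was without overlap (0.58 ± 0.247).

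Further lists were read more briefly. Cytosolic ribosomal protein genes had higher estimates for 28 of 29 (median 0.13), and their list mean was 11.82, 11.83, 11.73 and 11.59 in PyMT and 11.82 to 11.93 in p38α-lox PyMT; without PyMT replicate 4, the lowest, the median was 0.05. Splicing factors of the Prp19 complex had 12 of 16 higher (median 0.19; −0.03 and 0.34 within the β-actin sides, 0.07 to 0.27 with 1 array left out), with Snw1 alone at an unadjusted p under 0.05. Genes of mesenchymal transition had 12 of 17 lower (median −0.16), with the matrix protein Fn1 (−0.59 ± 0.205) and the repressor Snai1 (−0.41 ± 0.185) at an unadjusted p under 0.05. That median lay between −0.34 and −0.02 with 1 array left out. Fibroblast markers had 3 of 4 lower, with a median of −0.33 that was 1.09 on the higher β-actin side and −1.25 on the lower. Their part in the mesenchymal genes was not tested. Bcl2 family genes had 10 of 13 lower (median −0.11; −0.21 to −0.08 with 1 array left out), with the death promoter Bcl2l11 at −0.78 ± 0.477. Other probe sets of Bcl2l11 were at 0.22, −0.30, −0.10 and −0.17. Junction genes were even, 11 and 11 (median −0.15 and 0.12 within the β-actin sides), with F11r, a tight junction protein, lower without overlap (−0.54 ± 0.227). Glycolysis and hypoxia genes had 15 of 22 higher (median 0.07; −0.11 and 0.26 within the β-actin sides, −0.06 to 0.25 with 1 array left out), although the hexokinase Hk2 was lower (−0.69 ± 0.315). Catalase, Cat, was at −0.59 ± 0.224 among 17 antioxidant genes with a median of −0.03 (−0.08 and 0.02 within the β-actin sides). DNA damage genes (median −0.03; −0.02 and 0.10 within the sides) and lipid synthesis genes (median 0.01; −0.14 and 0.15) had 0 members at an unadjusted p under 0.05.

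Arrays of a group differed more in PyMT than in p38α-lox PyMT. The median standard deviation over genes was 0.295 in PyMT and 0.213 in p38α-lox PyMT, and 70.2% of genes had the smaller spread in p38α-lox PyMT. Without PyMT replicate 4 the PyMT value was 0.229. Within p38α-lox PyMT, replicate 1 stood apart for some genes. In that array 77 genes lay more than 2-fold above all 7 others and 10 of them more than 4-fold, against 1 to 39 and 0 to 1 in each other array.

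Genes high in p38α-lox PyMT replicate 1 included the secreted olfactomedin Olfm4, 8.186 there and 3.149 to 3.668 in the other 7 arrays. The diamine oxidase gene Aoc1 was 8.663 against 3.945 to 4.178. The glutathione peroxidase Gpx3 was 12.14 against 7.689 to 8.88. The hormone receptors Esr1 (9.551 against 6.662 to 8.34) and Pgr (7.488 against 4.689 to 5.876) were highest in the same array. The mean of the 4 hormone-sensing luminal markers tested was 8.463 there, against 5.482 to 7.467 in the others. Without this array the differences of Esr1 and Pgr between the groups were −0.01 and −0.15, against 0.52 and 0.40 with it.

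**Figure D4:**
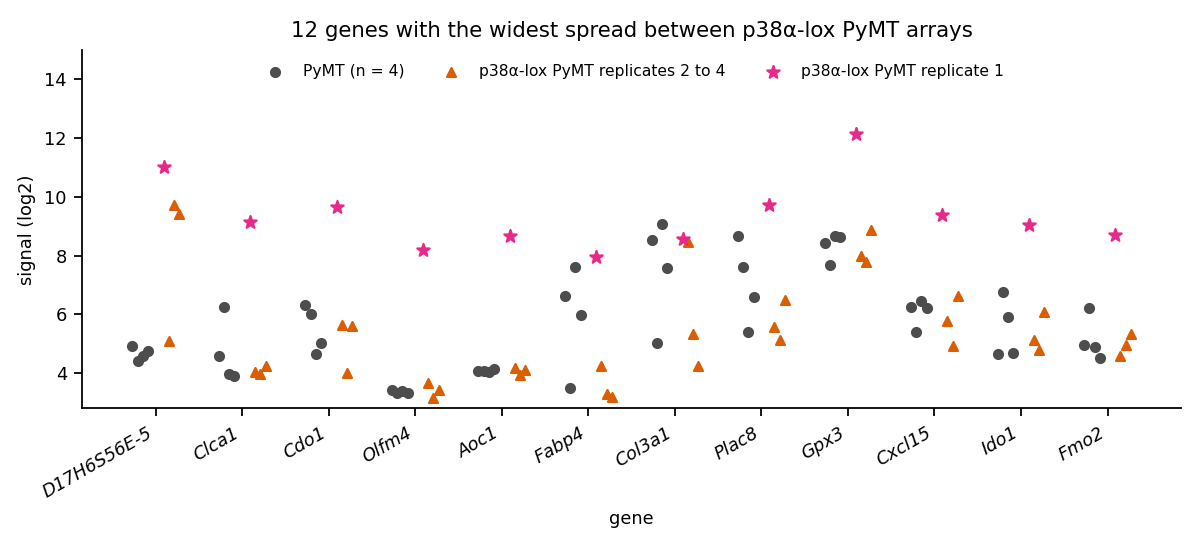
Log2 signal in each array for the 12 genes with the largest standard deviation between p38α-lox PyMT arrays; stars mark replicate 1 of that group. Replicate 1 is the highest of the 8 arrays for 11 of the 12 genes, Col3a1 being the exception, and D17H6S56E-5 was also high in replicates 3 and 4.

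D17H6S56E-5, chosen after its values were seen, had the largest difference of all. It was 4.908, 4.429, 4.587 and 4.749 in PyMT and 11.03, 5.098, 9.742 and 9.427 in p38α-lox PyMT (4.16 ± 1.39), and its second probe set had the same sign. Replicate 2 was near the PyMT level. Without PyMT it was 4.724, 4.256, 3.737 and 4.12 in MMTV-Cre and 4.172, 10.27, 4.007 and 9.979 in p38α-lox. It was thus above 9 in 5 of 8 arrays with p38a-lox and in 0 of 8 without. It lies on chromosome 17, as Mapk14 does, with 125 tested genes between them in the RefSeq order. H2-T10, a class I histocompatibility gene of the same chromosome, was 8.672, 8.186, 8.853 and 7.684 in PyMT and 9.671, 8.923, 9.486 and 9.351 in p38α-lox PyMT (1.01 ± 0.464).

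Among the 200 tested genes nearest to Mapk14 on that chromosome, 9 parted the groups (4.5%), beside 2.55% of all tested genes, and over the whole chromosome, these included, 30 of 700 did (4.29%). At an unadjusted p under 0.05 there were 8 of the 200 (4.0%), beside 3.58% of all genes. The inflammatory caspases Casp4 and Casp12, which neighbour each other on chromosome 9, were both higher in p38α-lox PyMT. Casp4 was 6.329, 6.302, 5.753 and 4.994 against 8.828, 6.8, 6.439 and 7.078 (1.44 ± 0.703), and Casp12 was 5.966, 7.16, 7.204 and 5.775 against 8.287, 7.947, 7.668 and 8.023 (1.45 ± 0.593). Without PyMT their differences were 1.76 and 1.62, with overlapping arrays.

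The arrays without PyMT share no samples with these groups, and 302 genes (2.1%) parted p38α-lox from MMTV-Cre there, 0.93% of all genes higher and 1.17% lower. In 8 genes (0.0555%) the arrays parted in the same direction with and without PyMT, beside 4 (0.0278%) in opposite directions. The number that chance alone would give was not computed, so the 8 are described and not read as a shared effect. Zbtb7a, a transcriptional repressor, was 6.52 to 6.668 in p38α-lox PyMT and 6.697 to 7.847 in PyMT (−0.64 ± 0.235), and differed by −0.61 ± 0.235 without PyMT. The stress-induced zinc-finger gene Zfand2a differed by −0.95 ± 0.246 and −0.87 ± 0.246, and the general transcription factor subunit Gtf2a1 by −0.39 ± 0.132 and −0.38 ± 0.132. Higher in both were BC064078 (1.43 ± 0.388 and 1.28 ± 0.388), the axonemal dynein Dnah11 (0.62 ± 0.23 and 0.89 ± 0.23), Amotl1 (0.64 ± 0.203 and 0.72 ± 0.203), the ubiquitin ligase Rnf122 (0.56 ± 0.235 and 1.01 ± 0.235) and Tnfrsf11a, the receptor RANK of luminal progenitors (0.57 ± 0.37 and 1.87 ± 0.37). None passed limma's adjusted threshold in either comparison. With PyMT, other probe sets of Gtf2a1 (−0.01 and −0.07), Tnfrsf11a (0.04) and BC064078 (0.15) had the same sign but differed much less.

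**Figure D5:**
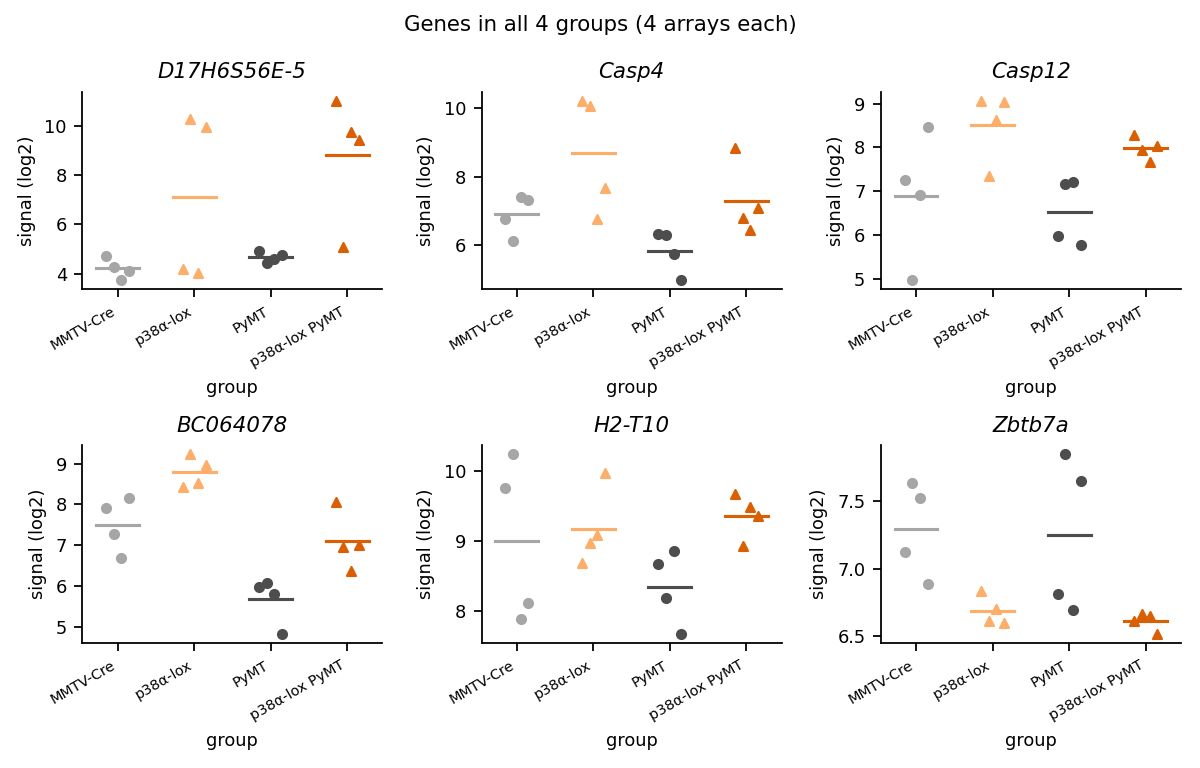
Log2 signal in each array and group mean in all 4 groups, 4 arrays each, MMTV-Cre and p38α-lox at 9 weeks and PyMT and p38α-lox PyMT at 6 weeks. D17H6S56E-5 is near 4 or near 10 in p38α-lox arrays and BC064078 and Zbtb7a part the genotypes at both ages.

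The difference between the p38α-lox effects with and without PyMT was tested as an interaction, and 0 of 14410 genes passed limma's adjusted threshold, with 406 (2.82%) at an unadjusted p under 0.05. PyMT and age cannot be told apart in it. In 4 genes (0.0278%) the arrays parted in opposite directions. Trim65, a ubiquitin ligase, was 6.236, 5.543, 5.744 and 5.522 in PyMT and 5.402, 5.335, 5.263 and 5.166 in p38α-lox PyMT (−0.47 ± 0.178), and differed by 0.75 without PyMT (interaction adjusted p = 0.992 by limma). The glycoprotein hormone Stc1 differed by −0.25 ± 0.139 with PyMT and 0.62 without. Aldh1a3 and Cat were not among these 4 genes, since their arrays overlapped with PyMT. Aldh1a3, the 1 of 6 luminal progenitor markers with a higher estimate in p38α-lox PyMT, differed by 0.28 ± 0.416 with PyMT and −1.55 without. The catalase gene Cat differed by −0.59 ± 0.224 with PyMT and 0.70 without. No gene is therefore called particular to cells with PyMT.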

How the data were processed

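Total RNA of sorted luminal cells was hybridised to Affymetrix mouse arrays. The authors deposited log2 signals made with RMA, per the submitters' processing notes; its version and settings are not stated there. RMA quantile-normalises arrays, so shifts common to all genes are removed. Of 45141 probe sets, 28898 had 1 gene symbol; 551 with several and 15692 unnamed ones were not used. Each gene took its probe set of highest mean over 16 arrays, and probe sets under the 25th percentile (3.67) were left out. limma 3.58.1 in R 4.3.3 fitted 1 model to the 4 groups, with Benjamini-Hochberg adjustment over 14410 genes and a threshold of 0.05; the procedure was tested on simulated data. Replicates were numbered in accession order. Named genes were Mapk14, the 10 of smallest p and 5 further of largest difference without overlap in each direction, list members of smallest p, and interaction genes, passing over clone names; others are said to be chosen after their values were seen. The comparison, lists and members were chosen with earlier results of these data known. The number of arrays limits the precision. Promoters are from a RefSeq table of GRCm38.p6.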

Additional observations from a re-analysis of the deposited data

Results flagged for a closer look

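In 161 genes named in the text or with the widest spread, both groups were searched for an array far from the other 3 of its group by Dixon's test, 322 groups in all; 13 arrays passed, and chance alone passes about 1 in 20 groups. That rate does not apply to Clca1, Olfm4 and Aoc1, which were searched because their spread within p38α-lox PyMT was among the largest. PyMT replicate 4 was low for the epithelial adhesion gene Epcam (11.13, others 11.53 to 11.61), the claudin Cldn7 (9.975, others 10.87 to 10.98), the fatty acid elongase Elovl1 (9.552, others 10.43 to 10.48) and the ribosomal protein gene Rps14 (11.34, others 12.11 to 12.21), and high for the mesenchymal receptor Pdgfrb (6.724, others 6.058 to 6.134). PyMT replicate 2 was low for Slc34a2 (3.639, others 4.535 to 4.644), and PyMT replicate 1 was high for B4galt1 (10.92, others 10.12 to 10.22).

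p38α-lox PyMT replicate 1 was high for 5 genes. These were Clca1 (9.153, others 3.979 to 4.259), Olfm4 (8.186, others 3.149 to 3.668), Aoc1 (8.663, others 3.945 to 4.178), Psmb8 (10.17, others 9.234 to 9.37) and the interferon-stimulated gene Oasl1 (4.384, others 4.05 to 4.091). p38α-lox PyMT replicate 3 was high for Fosl2 (8.683, others 8.533 to 8.551).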

How the results depend on the processing

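No paired analysis was possible because the labels give no replicate numbers shared between the groups. The β-actin sides and the range of the numbers in the sample titles were chosen after seeing the data. Both splits differ only in PyMT replicate 4, so they are not independent alternatives. limma called 5 genes with array weights and 0 to 3 when 1 array was left out, and the count at an unadjusted p under 0.05 was 1944 and 346 to 1102. Genes without overlap numbered 143 to 513 higher and 382 to 946 lower when 1 array was left out, where fewer arrays must part, and 175 lower with median centring. The median SD of p38α-lox PyMT was 0.185 without a filter, 0.255 with the filter at the median, 0.190 with probe sets averaged and 0.177 to 0.215 with 1 array left out. That of PyMT was 0.352 with the filter at the median and 0.229 to 0.314. Some differences changed sign when 1 array was left out: Aldh1a3 (−0.053 to 0.54), Csn1s1 (−0.52 to 0.020), Elf5 (−0.48 to 0.014), Esr1 (−0.0067 to 0.81), Hspa5 (−0.37 to 0.019), Irak1bp1 (−0.024 to 0.12), Mapk14 (−0.0795 to 0.18) and Pgr (−0.15 to 0.78). On the higher β-actin side the sign turned for Col1a1 (0.55), Col3a1 (1.73), Csn1s1 (0.17), Csn2 (0.27), Fabp4 (1.04) and Ppie (−0.073), and on the lower side for Elf5 (0.11), Emcn (−0.11), Irak1bp1 (−0.015) and Myh11 (−0.19). Averaging probe sets turned Mapk14 (−0.086), Runx1 (−0.59) and Ubap1 (−0.11), and Mapk14 was −0.00209 after a second quantile normalisation and −0.00703 with the title number range as a term. The cause of these was not tested. Of 34 list medians, 16 changed sign when 1 array was left out, among them glycolysis and hypoxia (−0.064 to 0.25), JNK and ERK kinases (−0.049 to 0.20) and interferon-stimulated genes (−0.28 to 0.035).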
